A study of Mus musculus with 8 samples.

Results

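The AP-1 family comprises basic leucine zipper (bZIP) transcription factors that bind DNA as pairs. Its members were taken as the rows of the deposited gene table whose symbol was *Fos*, *Fosb*, *Fosl1*, *Fosl2*, *Jun*, *Junb*, *Jund*, *Batf*, *Batf3* or *Maf*, which gave 10 of 24303 genes. RNA-Seq profiled P14 cells, CD8 T cells from the spleen of transgenic C57BL/6 mice at least 8 weeks old, male or female, whose T cell receptor recognizes the GP33 peptide of LCMV. All cells were first activated for 2 days on plates coated with anti-CD3 and anti-CD28, then pooled and kept in medium with IL-2 and IL-15. Acute-2d cells saw no GP33 after day 2, Acute-7d cells received GP33 repeatedly until day 7 and none afterwards, and T_Dysf cells received GP33 until day 19 together with TGF-β1 from day 7. These 3 conditions were collected on day 19, and Effector cells on day 7, with 2 libraries per condition. The study calls the libraries of a condition biological replicates. The animals or cultures behind each library are not given in the sources used here, so the p-values measure the spread between these libraries. The study takes Effector cells from day 7 of the same scheme, and in its cytometry labels day 7 Effector cells as stimulated for 7 days. The GP33 schedule of the Effector libraries is not stated separately. The study describes T_Dysf cells as isolated under chronic stimulation and the acutely stimulated cells as resting. All conditions are in vitro cultures of enriched CD8 T cells, T_Dysf differed from Acute-7d in both GP33 duration and TGF-β1, and Effector differed from the others in the day of collection, so these factors cannot be told apart from the conditions.

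Fos proteins pair with Jun proteins, and the pair binds short DNA elements in the promoters and enhancers of genes that T cells switch on after receptor signaling. *Fos*, *Fosb* and *Junb* are immediate-early genes, transcribed within minutes of a signal and then silenced, whereas *Jund* is present in most resting cells. *Batf* and *Batf3* lack a domain that activates transcription, pair with Jun proteins and bind composite elements together with IRF4 or IRF8, and *Maf* is a larger bZIP factor that regulates cytokine genes such as *Il10*.

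Depth on genes ran from 19382147 to 24856195 reads per library, estimated from the value of 1 read in each. Values are normalized counts, read counts divided by the authors' size factor of the library, and 3 reads (between 2.59 and 3.35 normalized counts) were taken as the floor. This floor and the intervals below cover counting error only. Differences were tested with limma on log2(normalized count + 1), and a gene was called where the fold change was at least 2 and the Benjamini-Hochberg adjusted p over 24303 genes was under 0.05. Fold changes are on this scale, which understates the change of low genes. With 2 libraries against 2, no exact permutation test can pass 0.05. The CD8 T cell marker list, with 9 of 9 markers present, summed to between 144572 and 149581 normalized counts in T_Dysf and between 83009 and 96315 elsewhere. For T_Dysf against Acute-7d, 4 of 9 were called against 5.57% of all genes, *Cd3g* and *Cd3e* higher and *Cd2* and *Cd5* lower. *Cd4* was at most 13.0 and *Clec9a*, a dendritic cell marker, at most 2.44, but *Itgax*, also carried by activated CD8 T cells, was 3306 and 3212 in T_Dysf. The B cell, NK cell and myeloid lists each summed to at most 1497 and the CD4 T cell list to at most 1636 in every library. These sums were not alike across conditions, since the NK cell list summed to between 1038 and 1497 in Acute-7d and to at most 567 elsewhere. For T_Dysf against Acute-7d, the NK cell marker *Ncr1* was called lower (log2 fold change -4.18, adjusted p = 0.0343). The B cell marker *Cd79b* was called higher there (1.84, adjusted p = 0.0307). For Effector against Acute-7d, 1 of 3 CD4 T cell markers was called lower and 1 of 5 B cell markers higher, against 8.06% of all genes. For Effector against Acute-2d, 1 of 5 myeloid markers was called lower, against 8.78%. The part of these lists in the member differences was not tested. The dendritic cell list summed to between 3534 and 3730 in T_Dysf, mostly *Itgax*, and to at most 1465 elsewhere, and its part in the member differences was not tested. Library names carried the prefix RESUB, which the labels do not explain, for both Effector libraries and Acute-7d replicate 1. No Acute-2d or T_Dysf library carried it, so between Effector and either of these conditions the prefix cannot be told apart from the condition.

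**Figure D1:**
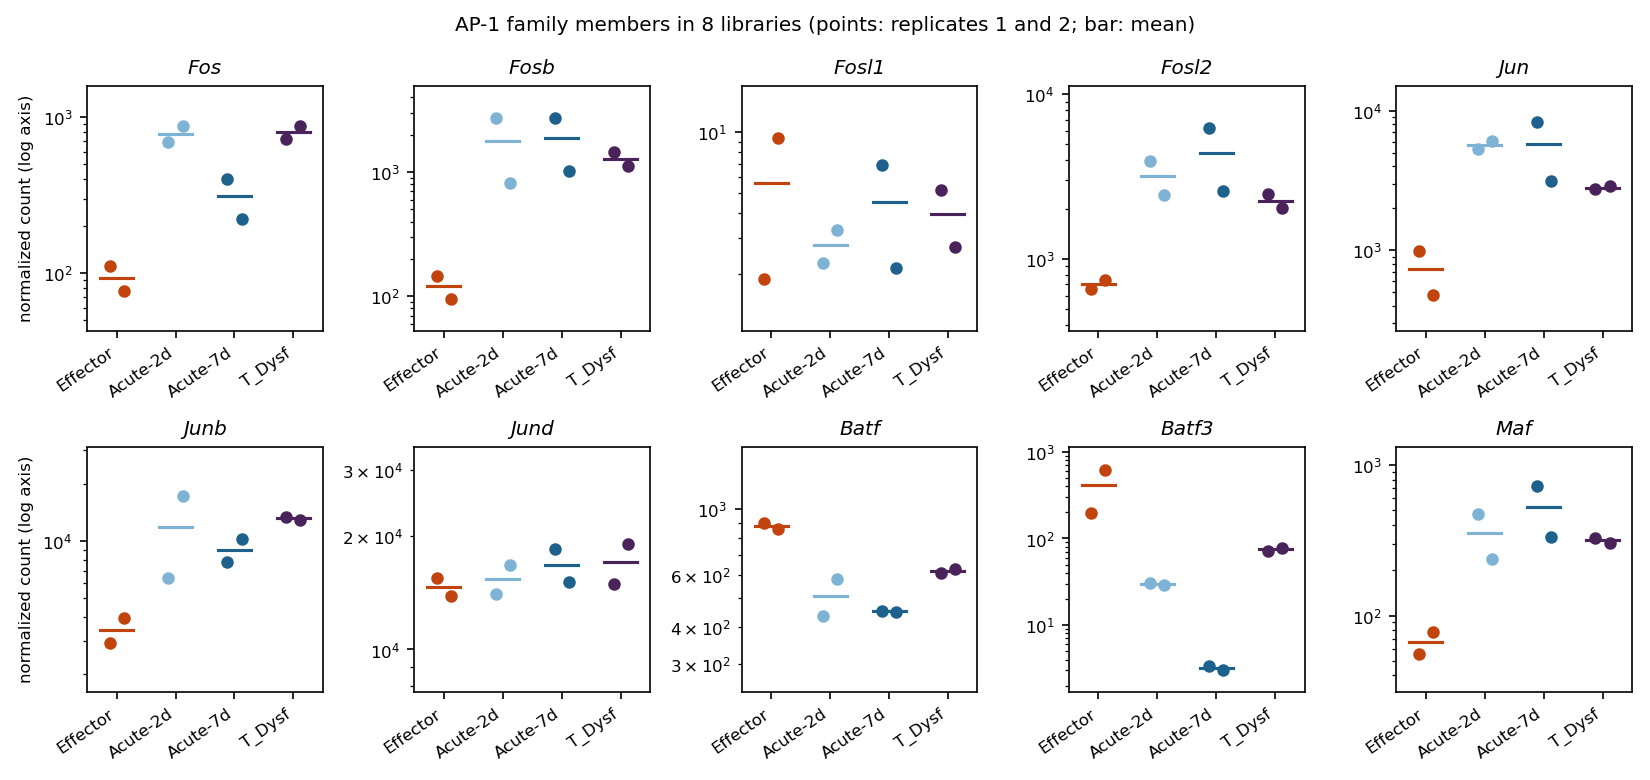
Normalized counts (log axis, own range per panel) of the 10 members in the 4 conditions, with 1 point per library and a bar at the mean. Both Effector points lie below the other 6 libraries for *Fos*, *Fosb*, *Fosl2*, *Jun*, *Junb* and *Maf* and above them for *Batf* and *Batf3*.

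The Effector condition stood apart from the others in most of the family. Both Effector libraries lay below the other 6 in 6 of 10 members (*Fos*, *Fosb*, *Fosl2*, *Jun*, *Junb* and *Maf*), where 12.7% of all genes did so, or 19.2% of the 12028 genes with a mean of at least 50. Both lay above the other 6 in 2 of 10 members (*Batf* and *Batf3*), where 14.6% of all genes did so, a share near that of the members. *Fosl1* and *Jund* showed neither pattern. Of the 10 members, 9 had a mean of at least 50, *Batf3* only through its Effector libraries, and *Fosl1* did not.

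Among the Fos subfamily, *Fos* (chr12:85473890-85477273, GRCm38, plus strand, 4 exons) was lowest in Effector, where its normalized count was 111 and 77.2. It was 404 and 221 in Acute-7d, 688 and 878 in Acute-2d, and 722 and 879 in T_Dysf. Libraries of Acute-2d and T_Dysf overlapped, Acute-7d lay below both, and Effector lay below all. Compared with Effector, *Fos* was 8.54-fold higher in T_Dysf (log2 fold change 3.09, SE 0.36, adjusted p = 0.0106). Relative to Acute-2d it was 8.33-fold lower in Effector (adjusted p = 0.0132), and relative to Acute-7d it was 3.21-fold lower (adjusted p = 0.0425). T_Dysf against Acute-7d gave a log2 fold change of 1.41 (95% interval 0.49 to 2.33), which did not pass in the limma fit of all genes (adjusted p = 0.0824). It did pass when, as in the methods of the study, genes with a maximum under 50 were removed before the fit (adjusted p = 0.0201). The unadjusted limma p changed as well, from 0.0111 to 0.00278. For T_Dysf against Acute-2d the log2 fold change was 0.04 (95% interval -0.88 to 0.96).

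*Fosb* (chr7:19302696-19310051, minus strand), a close relative of *Fos*, was 146 and 95.3 in Effector. It reached 2739 and 822 in Acute-2d, 2713 and 1018 in Acute-7d, and 1444 and 1112 in T_Dysf. The 3 day 19 conditions overlapped, and replicate 1 of both Acute conditions was well above replicate 2. *Fosb* was lower in Effector than in Acute-7d (log2 fold change -3.80, SE 0.75, adjusted p = 0.0372) and Acute-2d (-3.66, adjusted p = 0.0391), and 10.7-fold higher in T_Dysf than in Effector (adjusted p = 0.0452).

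*Fosl2*, also called Fra2 (chr5:32135801-32157842, plus strand), was 662 and 746 in Effector. Its values were 3924 and 2449 in Acute-2d, 6217 and 2599 in Acute-7d, and 2476 and 2045 in T_Dysf. T_Dysf lay below Acute-7d without overlap but overlapped Acute-2d. Effector was 5.71-fold lower than Acute-7d (log2 fold change -2.51, SE 0.47, adjusted p = 0.0328) and 4.41-fold lower than Acute-2d (adjusted p = 0.0448). Between T_Dysf and Effector the log2 fold change was 1.68 (adjusted p = 0.0798). *Fosl1*, also called Fra1 (chr19:5447547-5455946, plus strand), was near the floor throughout, between 1.89 and 9.42 normalized counts, so no fold is given, and *Ccdc85b* (between 522 and 1074) overlaps it on the opposite strand. The counting is not stated to use strand, so reads of such partners cannot be told apart.

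The windows from 250 bases before to 50 bases after the RefSeq start (GRCm38.p6) of the called Fos members are shown because these genes were all lower in Effector than in both Acute conditions. Capitals mark motif matches. The windows are chr12:85473640-85473939 (plus strand) for *Fos*, chr7:19309996-19310295 (minus strand) for *Fosb* and chr5:32136222-32136521 (plus strand) for *Fosl2*, whose RefSeq start lies 671 bases downstream of the first base of the GENCODE gene.
Fos: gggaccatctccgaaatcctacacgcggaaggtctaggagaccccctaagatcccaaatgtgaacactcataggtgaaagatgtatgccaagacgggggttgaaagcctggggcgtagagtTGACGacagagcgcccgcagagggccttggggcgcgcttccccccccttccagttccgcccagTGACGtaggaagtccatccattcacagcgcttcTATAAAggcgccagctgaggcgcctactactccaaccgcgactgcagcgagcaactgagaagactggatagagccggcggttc
Fosb: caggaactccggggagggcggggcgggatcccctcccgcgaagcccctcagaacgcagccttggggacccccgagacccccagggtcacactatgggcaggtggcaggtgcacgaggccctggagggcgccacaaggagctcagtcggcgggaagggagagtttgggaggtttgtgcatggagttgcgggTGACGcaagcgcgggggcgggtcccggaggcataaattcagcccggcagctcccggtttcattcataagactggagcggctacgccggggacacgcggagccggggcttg
Fosl2: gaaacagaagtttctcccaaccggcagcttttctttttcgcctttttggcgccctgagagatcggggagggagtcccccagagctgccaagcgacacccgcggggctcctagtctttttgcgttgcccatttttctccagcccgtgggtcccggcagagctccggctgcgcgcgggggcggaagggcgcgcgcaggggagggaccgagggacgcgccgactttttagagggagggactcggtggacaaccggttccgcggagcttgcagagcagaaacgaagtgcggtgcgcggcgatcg

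The *Fos* window holds TGACG, a core part of the cAMP response element (CRE), at -129 to -125 and at -66 to -62 from the start, and TATAAA at -33 to -28. The *Fosb* window holds TGACG at -60 to -56, and the *Fosl2* window matches none of the motifs searched. RefSeq windows were matched for 8 of 10 members, all except *Fosl1* and *Maf*, and the motifs, chosen after the sequences had been seen, were searched on both strands. TGANTCA, the AP-1 site, was in 0 of 8 members and 7.81% of 32851 windows. The full CRE, TGACGTCA, which contains TGACG, was in 0 of 8 and 1.79%, while TGACG was in 4 of 8 (*Fos*, *Fosb*, *Junb* and *Batf*) and 20.8%. TATAAA was in 2 of 8 (*Fos* and *Junb*) and 13.6%, and the CArG box, which serum response factor binds, was in 0 of 8 and 1.63%. The *Junb* match lies at 1 to 6, at the RefSeq start and not before it, and that start lies 30 bases upstream of the GENCODE start. The RefSeq start of *Jund* lies at -1210 from the first base of the GENCODE gene, so its window is upstream of that gene. A match describes these letters in this window and no more, and a missing match says nothing about sequence outside the window.

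In the Jun subfamily, *Jun* was lower in Effector than in both Acute conditions, *Junb* lay lowest in Effector without being called, and *Jund* varied little. *Jun* (chr4:95049034-95052222, minus strand, 1 exon), the founding partner of *Fos*, was 989 and 477 in Effector. It was 5337 and 6051 in Acute-2d, 8352 and 3157 in Acute-7d, and 2731 and 2865 in T_Dysf. Both T_Dysf libraries lay between Effector and both Acute conditions without overlap. Effector was lower than Acute-2d (log2 fold change -3.05, SE 0.56, adjusted p = 0.0312) and Acute-7d (-2.90, adjusted p = 0.0359). The log2 fold change was -1.02 for T_Dysf against Acute-2d (adjusted p = 0.327) and 2.02 for T_Dysf against Effector (adjusted p = 0.0791), and neither was called. The antisense gene *Junos* overlaps *Jun* and held between 2.05 and 20.0 normalized counts.

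*Junb* (chr8:84974484-84978718, minus strand, 1 exon), which restrains or replaces *Jun* at many sites, was 2901 and 3957 in Effector. It was 6418 and 17233 in Acute-2d, 7776 and 10255 in Acute-7d, and 13338 and 12990 in T_Dysf. Both Effector libraries were lowest, and Acute-2d replicate 2 was above both T_Dysf libraries while replicate 1 was below them. No comparison of *Junb* was called in the fit over all genes, with log2 fold changes of 1.96 for T_Dysf against Effector (adjusted p = 0.0633), -1.40 for Effector against Acute-7d (adjusted p = 0.138) and -1.63 for Effector against Acute-2d (adjusted p = 0.0947). After removal of genes with a maximum under 50 and a new fit all 3 were called, with adjusted p between 0.0103 and 0.0345. *Junb* overlaps *Prdx2* (between 1605 and 2994), which was highest in Effector.

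*Jund* (chr8:70698949-70700616, plus strand, 1 exon) ranged from 13872 to 19074 over the 8 libraries. The 4 conditions overlapped, and the log2 fold changes lay between -0.19 and 0.21, with 95% intervals that stayed between -0.68 and 0.69. A difference in *Jund* as large as those called for *Jun* or *Fos* lies outside these intervals. The antisense gene *Gm11175*, which overlaps *Jund*, was at most 20.2.

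The *Jun* window is shown for comparison with those of *Fos* and *Fosb*, since *Jun* was lower with them in Effector than in both Acute conditions (chr4:95052173-95052472, GRCm38.p6, minus strand). Capitals mark TGACATCA, a CRE-like element, at -45 to -38.
Jun: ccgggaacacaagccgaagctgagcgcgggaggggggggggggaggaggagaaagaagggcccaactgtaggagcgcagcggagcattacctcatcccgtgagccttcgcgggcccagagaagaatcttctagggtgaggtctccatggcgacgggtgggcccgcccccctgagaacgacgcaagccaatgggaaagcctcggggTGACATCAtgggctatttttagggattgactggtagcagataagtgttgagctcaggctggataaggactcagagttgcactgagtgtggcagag

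TGACATCA was in 1 of 8 members and 3.62% of all windows. It was added to the motifs once the *Jun* window had been read.

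In the Batf subfamily both members were highest in Effector, where 6 of the other members were lowest. *Batf* (chr12:85686669-85709087, plus strand), which supports effector differentiation of CD8 T cells, was 895 and 854 in Effector. It was 610 and 630 in T_Dysf, 435 and 583 in Acute-2d, and 453 and 451 in Acute-7d. Effector lay above T_Dysf and T_Dysf above both Acute conditions without overlap, whereas the Acute conditions overlapped each other. *Batf* passed the adjusted p for Effector against Acute-7d (1.93-fold, adjusted p = 0.0223) and against Acute-2d (1.73-fold, adjusted p = 0.0289), but not the 2-fold limit, and was not called. T_Dysf against Acute-7d gave 1.37-fold (adjusted p = 0.129).

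*Batf3* (chr1:191097847-191108945, plus strand), known for the development of cross-presenting dendritic cells and also induced in activated CD8 T cells, varied most. It was 197 and 624 in Effector, 71.6 and 78.3 in T_Dysf, 30.5 and 29.1 in Acute-2d, and 3.35 and 3.03 in Acute-7d. No condition overlapped another, and each Acute-7d library held 3 reads, the floor. The 171 reads of T_Dysf against 6 of Acute-7d gave a ratio of 23.6 (95% counting interval 10.6 to 65.1), and the 838 of Effector gave 126 (57.6 to 344). The fitted log2 fold change was 4.18 for T_Dysf against Acute-7d (SE 0.57, adjusted p = 0.0200) and 6.39 for Effector against Acute-7d (adjusted p = 0.0110). Both depend on the pseudocount, with 2.69 and 4.78 at a pseudocount of 10. *Batf3* was also called in Effector against Acute-2d (3.51, SE 0.57, adjusted p = 0.0234). The 56 reads of Acute-2d against the 6 of Acute-7d gave a ratio of 9.39 (4.05 to 26.7). The fitted log2 fold change for Acute-7d against Acute-2d, made smaller by the pseudocount, was -2.88 and did not pass after adjustment (adjusted p = 0.360). T_Dysf against Acute-2d gave 1.30 (adjusted p = 0.225) and T_Dysf against Effector -2.21 (adjusted p = 0.0645). Of the 5 dendritic cell markers found, *Clec9a* reached at most 2.44, *Siglech* at most 3.03 and *Zbtb46* at most 35.7. *Xcr1* was 546 and 101 in Effector and between 265 and 391 elsewhere. *Itgax* was 3306 and 3212 in T_Dysf, 669 and 1107 in Acute-7d, 296 and 391 in Acute-2d, and 656 and 296 in Effector. The part of these markers in the *Batf3* differences was not tested.

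The *Batf3* window is shown as that of the called member that was higher in Effector than in both Acute conditions, where *Fos* and *Jun* were lower (chr1:191098164-191098463, GRCm38.p6, plus strand). It holds none of the motifs searched, and its RefSeq start lies 567 bases downstream of the first base of the GENCODE gene.
Batf3: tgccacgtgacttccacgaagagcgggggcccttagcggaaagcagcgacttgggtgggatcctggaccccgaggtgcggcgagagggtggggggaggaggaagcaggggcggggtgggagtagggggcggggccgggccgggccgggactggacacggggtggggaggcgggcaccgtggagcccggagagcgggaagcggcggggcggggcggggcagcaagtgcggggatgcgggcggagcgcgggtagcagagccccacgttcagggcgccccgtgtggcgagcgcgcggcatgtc

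*Maf* (chr8:115682942-115707794, minus strand) lay lowest in Effector, as *Fos* and *Jun* did. It was 55.7 and 78.2 in Effector, 473 and 236 in Acute-2d, 727 and 332 in Acute-7d, and 329 and 304 in T_Dysf. Effector lay below all others, T_Dysf lay just below Acute-7d, and Acute-2d spanned T_Dysf. Effector was lower than Acute-7d (log2 fold change -2.88, SE 0.51, adjusted p = 0.0296) and Acute-2d (-2.32, adjusted p = 0.0447), and T_Dysf was 4.74-fold higher than Effector (adjusted p = 0.0486). For T_Dysf against Acute-2d the log2 fold change was -0.08 (95% interval -1.40 to 1.24). *Il10*, a gene that *Maf* activates in T cells, was 615 and 637 in T_Dysf and at most 2.23 in the other libraries. *Maf* overlaps the antisense gene *Gm15655*, which was not analysed here.

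**Figure D2:**
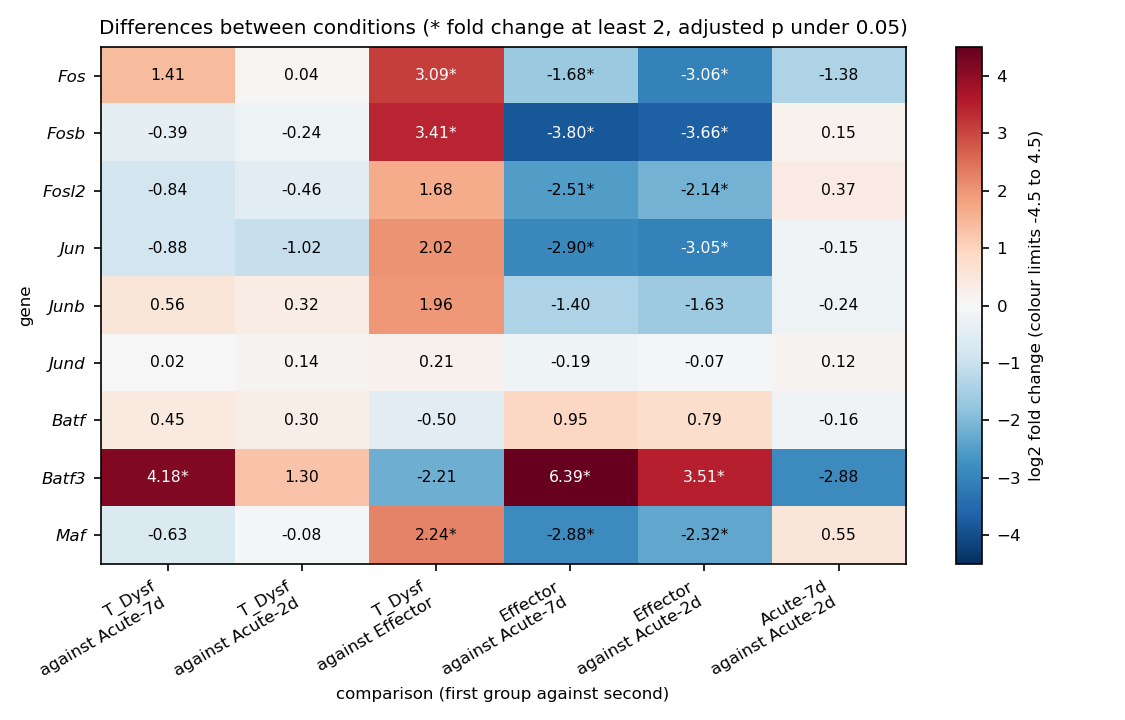
Log2 fold changes of 9 members (rows; *Fosl1* is left out because it was near the floor) in 6 comparisons (columns), where red is higher and blue lower in the condition named first and an asterisk marks a called difference. Effector against either Acute condition carries 6 asterisks each, T_Dysf against Effector 3, T_Dysf against Acute-7d 1, and the other 2 columns none.

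Counted by comparison, the members separated Effector from both Acute conditions. For Effector against Acute-7d, 6 of 10 members were called, 1 higher (*Batf3*) and 5 lower (*Fos*, *Fosb*, *Fosl2*, *Jun* and *Maf*), where 8.06% of all genes were called (4.18% higher and 3.88% lower), and the median log2 fold change of the members was -1.54 against 0 over all genes. For Effector against Acute-2d, 6 of 10 were called, again *Batf3* higher and *Fos*, *Fosb*, *Fosl2*, *Jun* and *Maf* lower, against 8.78% of all genes (4.31% higher and 4.48% lower), with a median of -1.89. These comparisons share the Effector libraries. Removal of genes with a maximum under 50, which removed *Fosl1* and which *Batf3* passed only through Effector and T_Dysf, added *Junb* as lower and gave 7 of the 9 members left in each, against 16.5% and 18.0% of 13175 genes. The first count became 0 without Acute-7d replicate 1, 1 without Effector replicate 2, T_Dysf replicate 1 or T_Dysf replicate 2, 2 without Effector replicate 1, 3 without Acute-7d replicate 2 and 4 without either Acute-2d library. The second became 1 without either Acute-2d or either T_Dysf library, 2 without Effector replicate 2, and 3 without Effector replicate 1 or either Acute-7d library. Each such fit had 1 residual degree of freedom fewer, and every called value kept its direction and a fold change of at least 2.

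For T_Dysf against Effector, 3 of 10 members were called, all higher in T_Dysf (*Fos*, *Fosb* and *Maf*), against 9.22% of all genes (4.47% higher), and the median of the members was 1.82. Removal of genes with a maximum under 50 raised this to 7 of 9, adding *Fosl2*, *Jun* and *Junb* as higher and *Batf3* as lower in T_Dysf, against 19.2% of 13175 genes. The count of 3 became 0 without T_Dysf replicate 1, 1 without T_Dysf replicate 2 or Effector replicate 2, and 2 without Effector replicate 1 or either Acute-7d library.

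The 3 day 19 conditions differed less. For T_Dysf against Acute-7d, 1 of 10 members was called (*Batf3*, higher) against 5.57% of all genes (2.54% higher), and the member median was -0.02. With genes of a maximum under 50 removed, *Fos* was added as higher, giving 2 of 9 against 13.0%. *Batf3* lost its call without either Acute-2d, either Acute-7d or either T_Dysf library, with log2 fold changes of 4.12 to 4.24 and adjusted p between 0.0519 and 0.106. For T_Dysf against Acute-2d, 0 of 10 were called by limma, and 0 had an unadjusted p under 0.05, against 7.35% of all genes. Without Effector replicate 1, *Batf3* was called there (adjusted p = 0.0479). The 9 members other than *Fosl1* had log2 fold changes between -1.02 (*Jun*) and 1.30 (*Batf3*), and several intervals were wide, from -2.19 to 1.71 for *Fosb*. For Acute-7d against Acute-2d, 0 of 10 were called by limma against 0.169% of all genes, and 2 (*Fos* at -1.38 and *Batf3* at -2.88) had an unadjusted p under 0.05.

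With Effector and T_Dysf pooled against both Acute conditions, 4 of 10 members were called against 8.18% of all genes (3.74% higher and 4.44% lower). *Batf3* was higher (log2 fold change 3.85, SE 0.40, adjusted p = 0.00741), and *Fosl2* (-1.49, adjusted p = 0.0399), *Jun* (-1.96, adjusted p = 0.0319) and *Maf* (-1.48, adjusted p = 0.0495) were lower. The average joins unlike values, since for *Fos* the T_Dysf libraries lay with Acute-2d and the Effector libraries below all others. *Fosl2*, *Jun* and *Maf* were not called for T_Dysf against either Acute condition. For *Fosl2* and *Maf* T_Dysf lay below Acute-7d but overlapped Acute-2d, with log2 fold changes of -0.46 and -0.08 against Acute-2d. The count of 4 became 1 without Effector replicate 2, Acute-2d replicate 1, Acute-7d replicate 1 or either T_Dysf library, and 2 without Effector replicate 1 or Acute-2d replicate 2.

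**Figure D3:**
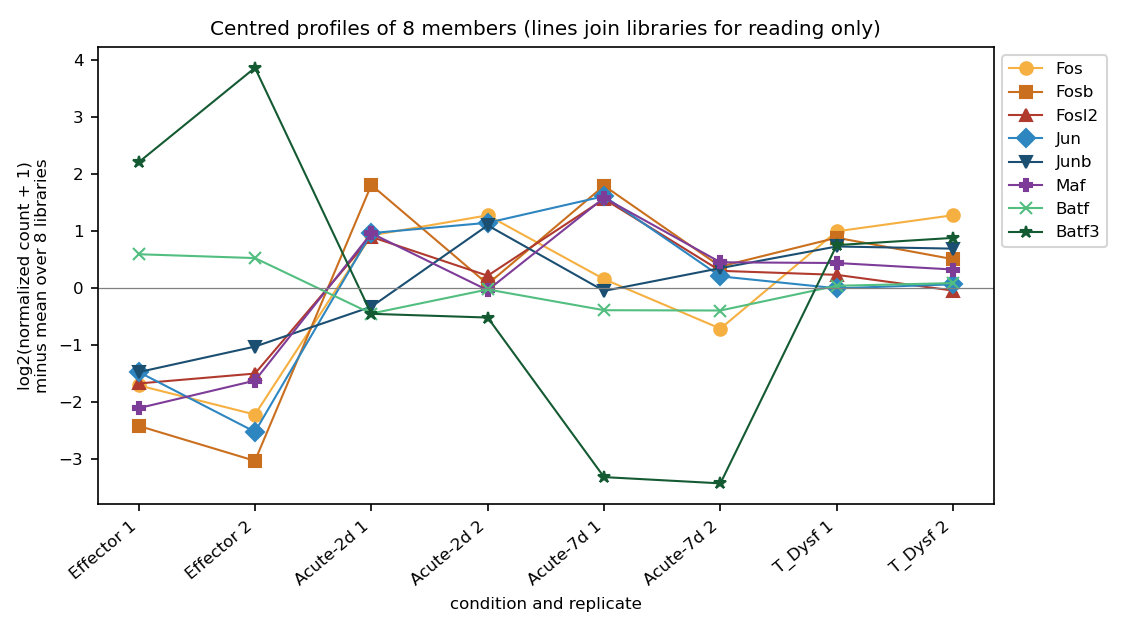
Log2(normalized count + 1) of 8 members, each centred on its mean over 8 libraries, by condition and replicate. *Fos*, *Fosb*, *Fosl2*, *Jun*, *Junb* and *Maf* lie below 0 in both Effector libraries, *Batf* and *Batf3* above it, and *Fosl2*, *Jun* and *Maf* peak together in Acute-7d replicate 1.

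Libraries of the same Acute condition differed in several members by more than most genes did. In Acute-7d, 4 of the 9 members with a mean of at least 50 (*Fosb*, *Fosl2*, *Jun* and *Maf*) differed between replicates by more than 2-fold on the log2(normalized count + 1) scale, all higher in replicate 1, against 3.10% of the 12028 genes. In Acute-2d, 2 of 9 did (*Fosb* 3.33-fold higher in replicate 1 and *Junb* 2.69-fold higher in replicate 2), against 2.03%, and *Maf*, at 473 and 236, lay at the limit. In Effector, 2 of 9 did (*Jun* and *Batf3*), against 4.53%, and in T_Dysf 0 of 9, against 5.89%. Because Acute-7d replicate 1 carried the RESUB prefix and replicate 2 did not, prefix and replicate cannot be told apart there. For Effector against Acute-2d and T_Dysf against Effector, prefix and condition cannot be told apart, so those calls may hold a prefix difference. The Effector mean was also set against Acute-7d replicate 1 alone, which shares the prefix with Effector. The log2 fold change was -2.12 for *Fos*, -4.51 for *Fosb*, -3.14 for *Fosl2*, -3.60 for *Jun*, -3.44 for *Maf* and 6.34 for *Batf3*. Replicate 1 was the higher Acute-7d library for *Fos*, *Fosb*, *Fosl2*, *Jun* and *Maf*. Values larger than with both Acute-7d libraries therefore had to result for these genes and tell nothing about the prefix. Among libraries without the prefix, T_Dysf differed from Acute-7d replicate 2 by 1.84 for *Fos*, 4.24 for *Batf3* and -0.17 for *Jun*. These values have no test. With a term for the prefix in the fit, 3 members (*Fosl2*, *Jun* and *Batf3*) were called for Effector against Acute-7d. In that fit 0 were called for T_Dysf against Acute-7d, T_Dysf against Effector and Effector against Acute-2d. Only Acute-7d held libraries with and without the prefix, so the difference between its 2 libraries alone set the term. The fit therefore repeated the single-library values above (6.34 and 4.24 for *Batf3*) and cannot separate prefix from replicate.

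Levels were compared between members as normalized counts per kb of merged GENCODE exons, which can exceed the transcript expressed. On that scale *Jund* was highest in 8 of 8 libraries, and the Jun subfamily made up between 89.4% and 94.2% of the family sum. The Fos subfamily made up 1.19% and 1.15% in Effector against 3.43% to 7.91% in the other libraries. The Batf subfamily made up 6.47% and 8.81% in Effector against 1.73% to 2.83% elsewhere. The family sum per kb was 11744 and 11323 in Effector and between 14388 and 20677 in the other libraries, so that *Batf* and *Batf3* formed a larger part of a smaller sum in Effector.

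**Figure D4:**
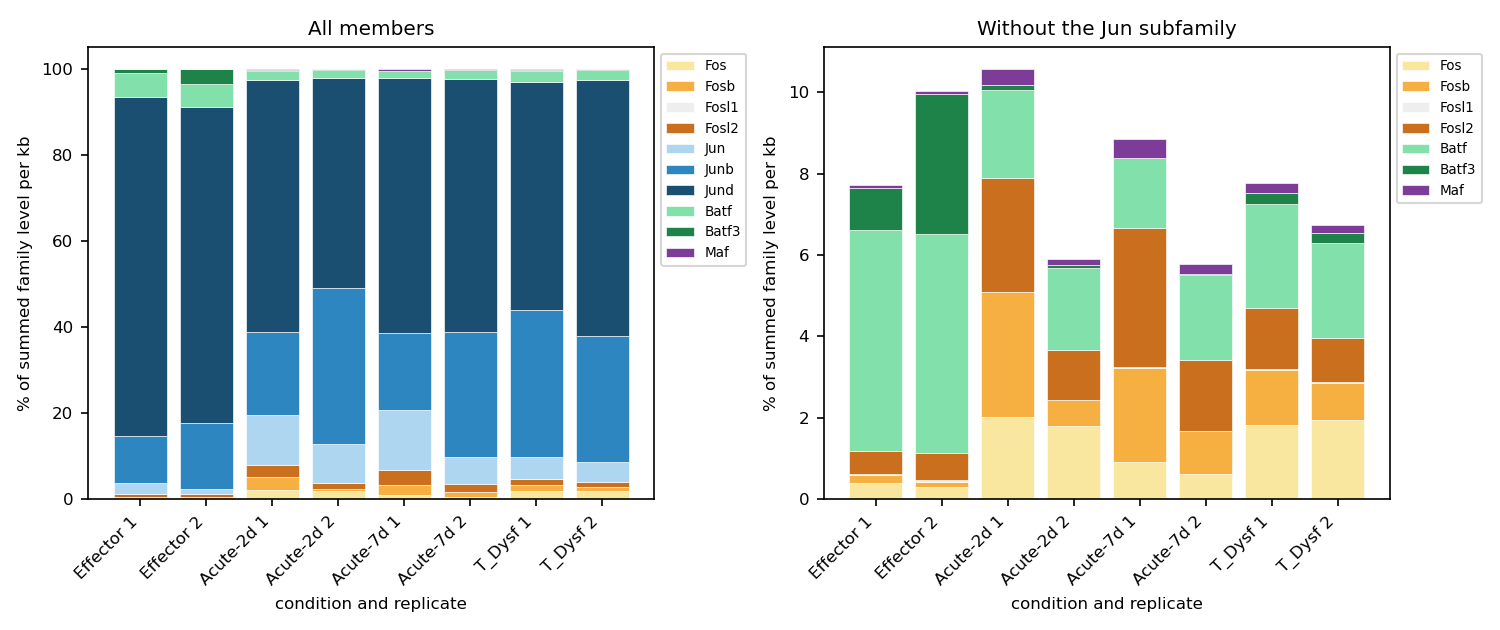
Share (%) of each member in the summed family level per kb, stacked per library from 0, for all 10 members (left) and for the 7 outside the Jun subfamily (right, own axis). The green *Batf* and *Batf3* segments are tallest in the 2 Effector libraries, and the yellow to brown segments of the Fos subfamily smallest.

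For each member called in at least 1 comparison, the genes of most similar profile were those with the smallest root mean square difference in centred log2 over the 8 libraries, among 12028 genes with a mean of at least 50. The gene nearest to *Maf* was *Fosl2* (0.24), followed by *Fbxl22* and *Csrnp1* (0.31 each), and *Fosl2* in turn was nearest to *Fbxl22* (0.21), *E030022I16Rik* (0.23) and then *Maf*. *Jun* was nearest to *Dusp1*, a MAP kinase phosphatase (0.24), then to *H1f2* and *Zrsr1*. *Fos* was nearest to *Epm2a* (0.38), *Slc22a17* and *Mturn*, and *Fosb* to *Gm45222* (0.46), *Gcnt2* and *4833422C13Rik*. *Batf3* had no gene closer than *Fads2* (0.88), with *Gins1* and *Shcbp1* next. The points share libraries and depth, and the distances carry no test.

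The other genes of the pathway were described by lists. Each count below stands beside the share of all genes called in the same comparison. That share was 8.06% for Effector against Acute-7d, 8.78% for Effector against Acute-2d and 9.22% for T_Dysf against Effector. It was 7.35% for T_Dysf against Acute-2d and 5.57% for T_Dysf against Acute-7d. Of 20 immediate-early genes outside AP-1, 9 were called for Effector against Acute-7d, 8 lower and 1 higher, with a median log2 fold change of -1.09. For Effector against Acute-2d 8 were called, all lower (median -1.26), and for T_Dysf against Effector 5, all higher (median 1.10). The summed level of the list was between 30921 and 35085 normalized counts in Effector and between 73139 and 110638 elsewhere, and its part in the member differences was not tested. *Dusp1* (-2.64, adjusted p = 0.0185), the early activation marker *Cd69* (-2.14, adjusted p = 0.00561) and the ERK phosphatase *Dusp6* (-2.24, adjusted p = 0.0300) were lower in Effector than in Acute-7d, whereas *Nr4a1*, an orphan nuclear receptor induced by T cell receptor signaling, was higher (2.25, adjusted p = 0.0348). In T_Dysf against Acute-7d, 4 of 20 were called, with *Nr4a2* (3.14, adjusted p = 0.0240) and *Nr4a1* (2.58, adjusted p = 0.0323) higher and *Myc* (-1.69, adjusted p = 0.0176) and *Klf6* (-1.56, adjusted p = 0.0495) lower. *Fos* and *Nr4a1* thus moved in opposite directions between Effector and Acute-7d.

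Of 23 other bZIP factors and partners, 3 were called for Effector against Acute-7d (8.06% of all genes) and 1 for Effector against Acute-2d (8.78%). For T_Dysf, 4 were called against Effector (9.22%), 3 against Acute-2d (7.35%) and 2 against Acute-7d (5.57%). The medians of the list lay between 0.00 and 0.15. *Bach2*, a repressor that competes with AP-1 for DNA sites, was 62.1 and 82.7 in T_Dysf and between 726 and 2350 in the other libraries. It was lower in T_Dysf than in Acute-7d (-4.40, SE 0.29, adjusted p = 0.00432), Acute-2d (-4.75, adjusted p = 0.00279) and Effector (-3.63, adjusted p = 0.00510). The small Maf protein gene *Maff* was 42.9 and 60.2 in Effector and between 209 and 811 elsewhere, and it was lower in Effector than in Acute-7d (-2.89, SE 0.31, adjusted p = 0.0138), as *Maf* was. Among the partners of *Batf* and *Batf3*, *Irf4* was higher in Effector than in Acute-7d (1.39, SE 0.28, adjusted p = 0.0388) and *Irf8* higher in T_Dysf than in Acute-7d (1.83, adjusted p = 0.0494).

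Of 20 kinases and serum response factors upstream of AP-1, at most 1 was called in any comparison. *Map2k6* was lower in Effector than in Acute-7d (-1.24, adjusted p = 0.0381) or Acute-2d (-1.32, adjusted p = 0.0322), and *Map3k1* lower in T_Dysf than in Acute-2d (-1.03, adjusted p = 0.0117). For T_Dysf against Acute-7d the list ran from -1.03 to 0.91. Below the 2-fold limit, *Prkcq* (-0.92, adjusted p = 0.00813) and *Map3k1* (-0.81, adjusted p = 0.0250) passed the adjusted p there as lower in T_Dysf. *Map2k7* and *Braf* also passed as lower, and *Map2k2* (0.60, adjusted p = 0.0169) passed as higher. Of 21 genes known as AP-1, BATF-IRF4 or MAF targets in T cells, 19 were in the table. For T_Dysf against Acute-7d 7 were called, 6 higher and 1 lower, with *Il10* (8.45), *Ccl3* (5.43), *Ccl4* (5.16) and *Havcr2* (2.44, adjusted p = 0.0173) among the higher ones. For Effector against Acute-7d 6 were called, 5 higher, with *Ccl3* (3.60, adjusted p = 0.0260) and *Ccl4* (2.64, adjusted p = 0.0169), and *Spp1* was lower (-1.88, adjusted p = 0.00971). *Ccl3* and *Ccl4*, chemokine genes of activated CD8 T cells, were thus higher in Effector while *Fos*, *Fosb* and *Jun* were lower. Of 10 heat shock genes 1 was called for Effector against Acute-7d (*Hspd1*, 1.56, adjusted p = 0.0298), a share near the 8.06% of all genes. The sum of the heat shock list was between 90306 and 128909 in Effector and between 67548 and 75225 elsewhere. The part of heat shock in the member differences was not tested.

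**Figure D5:**
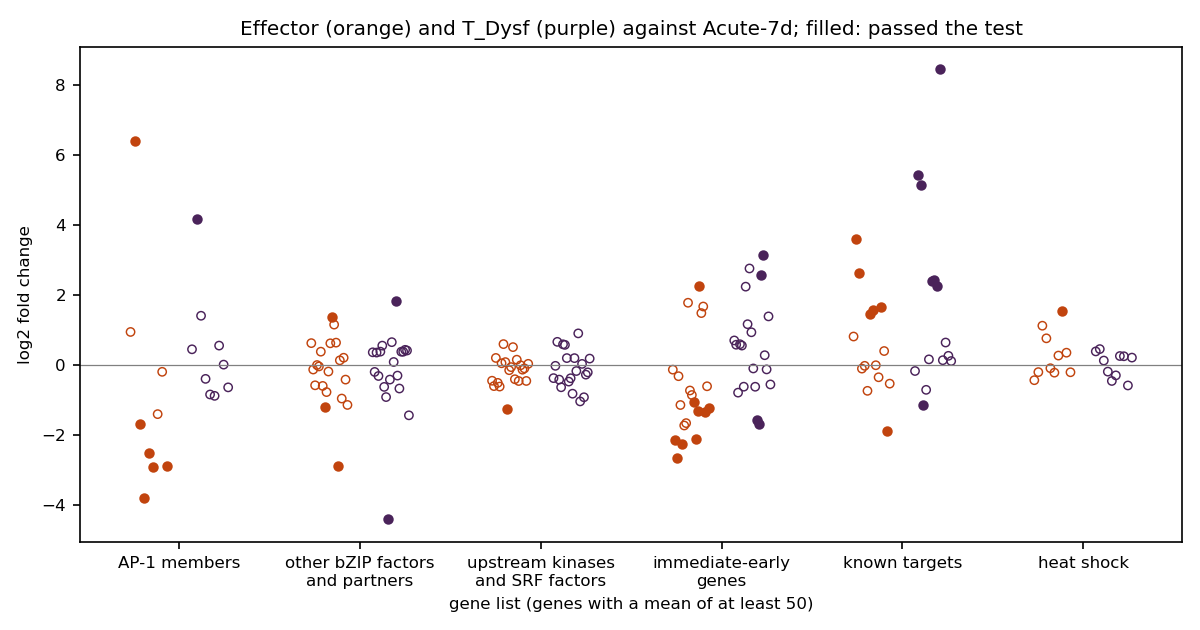
Log2 fold changes against Acute-7d for the members other than *Fosl1* and for 5 gene lists, limited to genes with a mean of at least 50, in Effector (orange) and T_Dysf (purple), with filled points for called genes. Members and immediate-early genes in Effector lie mostly below 0, whereas upstream kinases and serum response factors lie on both sides of 0, between -1.03 and 0.91 in T_Dysf.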

How the data were processed

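RNA-Seq of sorted P14 CD8 T cells was analysed from 1 deposited table of 24303 genes and 8 libraries, grouped by the labels into 4 conditions of 2. In Partek Flow the authors mapped reads (STAR, mm10), assigned them to RefSeq transcripts and scaled them with the DESeq2 median ratio. The deposited values are a signal, estimated read counts that the authors divided by a size factor per library, and are called normalized counts here. Multi-mapping and strand settings are not given in the sources used here. Only between 53.3% and 75.8% of values under 1000 reads were within 0.02 reads of a whole number, so no count model was fitted.

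limma 3.58.1 (R 4.3.3; lmFit, eBayes with trend) was fitted to log2(normalized count + 1) of all genes and libraries, with 4 group means, 4 residual degrees of freedom and 7 contrasts, all two-sided, and was tested on simulated data. The members and gene lists were chosen with earlier results of these data known. The named genes were the 10 members, at most 4 called genes per list and comparison with a mean of at least 50 and the largest change, and the 3 genes most like each called member. *Map2k6*, *Map3k1*, *Irf4*, *Irf8*, *Maff* and *Bach2* came from this rule, and overlapping genes and marker genes were named for the limits they set. *Prkcq*, *Map2k2*, *Map2k7* and *Braf* were named outside it, as genes that passed the adjusted p but not the 2-fold limit. Gene positions and exon lengths came from GENCODE vM21 and promoter windows from RefSeq, both GRCm38. The alternatives were other pseudocounts, low-value filters, scalings, fits and thresholds, and leaving out each library. Replicate numbers were checked for pairing. The correlations of replicate differences over 12028 genes, which are not independent replicates, ran from -0.199 to 0.197 over 6 pairs of conditions, with 2 over 0.1, so the numbers were not taken as pairs. Python 3.11.15, numpy 2.4.6, pandas 2.3.3, scipy 1.17.1 and matplotlib 3.10.9 were used.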

Additional observations from a re-analysis of the deposited data

How the results depend on the processing

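The 20 called member differences kept their direction and a fold change of at least 2 under every alternative that gave a value for them. The number of members called did change. Keeping genes of mean 50 or more, or of maximum 50 or more, gave 2 members for T_Dysf against Acute-7d (1 in the fit of all genes), 7 for T_Dysf against Effector (3), 7 for Effector against either Acute condition (6) and 5 for the pooled comparison (4), to which *Fosb* was added. A fit of the compared groups alone, with fewer samples, gave 1 for T_Dysf against Acute-2d (*Jun*) and 0 for T_Dysf against Effector, Effector against Acute-7d and Effector against Acute-2d, and it gave no value for the pooled comparison, which uses all groups. A term for the RESUB prefix gave 0 for T_Dysf against Acute-7d, T_Dysf against Effector and Effector against Acute-2d and 3 for Effector against Acute-7d. The Acute-7d pair alone set this term, so it cannot separate prefix from replicate. eBayes without trend gave 1 for T_Dysf against Effector, 5 for Effector against Acute-2d and 3 for the pooled comparison. An unadjusted p under 0.05 gave 2 for T_Dysf against Acute-7d, 7 for T_Dysf against Effector, 2 for Acute-7d against Acute-2d, 7 for Effector against either Acute condition and 5 for the pooled comparison. A pseudocount of 0.1 lost 2 calls and quantile normalization 3, all of *Maf*, and quantile normalization added *Junb* for T_Dysf against Effector. A pseudocount of 10 and rescaling to equal 75th percentiles or totals changed no count. Without 1 library at a time the count ran from 0 to 1 for T_Dysf against Acute-7d, 0 to 1 for T_Dysf against Acute-2d, 0 to 3 for T_Dysf against Effector, 0 to 4 for Effector against Acute-7d, 1 to 3 for Effector against Acute-2d and 1 to 4 for Effector and T_Dysf together against both Acute conditions, as fits with 1 residual degree of freedom fewer, in which a lone library was assumed to vary like the others. Leaving out 1 library lost 110 of 160 calls. The replicate number as a block, which is no pairing here, gave 1, 0, 2, 5, 5, 0 and 4 members for T_Dysf against Acute-7d, T_Dysf against Acute-2d, T_Dysf against Effector, Effector against Acute-7d, Effector against Acute-2d, Acute-7d against Acute-2d and the pooled comparison, and lost 4 of 20 calls. Apart from these, the cause of a change in count was not tested.

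The differences that reversed had not been called. At equal 75th percentiles *Jund* was -0.062 for T_Dysf against Acute-7d and *Fos* -0.028 for T_Dysf against Acute-2d. Under quantile normalization *Fos* was -0.038 for T_Dysf against Acute-2d, and *Jund* 0.075 for Effector against Acute-2d and 0.11 for the pooled comparison. With the RESUB term *Fosb* was 0.32 for T_Dysf against Acute-7d, and for Acute-7d against Acute-2d *Fosb* was -0.56, *Fosl2* -0.25, *Jund* -0.027 and *Maf* -0.0096. Without 1 library the log2 fold changes for Acute-7d against Acute-2d ran from -0.72 to 1.02 for *Fosb*, -0.25 to 1.003 for *Fosl2*, -0.85 to 0.56 for *Jun*, -0.95 to 0.48 for *Junb*, -0.027 to 0.27 for *Jund*, -0.37 to 0.056 for *Batf* and -0.0096 to 1.12 for *Maf*. For T_Dysf against Acute-2d they ran from -0.14 to 0.21 for *Fos*, -1.11 to 0.62 for *Fosb*, -0.39 to 1.04 for *Junb*, -0.037 to 0.31 for *Jund* and -0.58 to 0.42 for *Maf*. For T_Dysf against Acute-7d they ran from -1.10 to 0.32 for *Fosb* and -0.16 to 0.19 for *Jund*, and *Jund* ran from -0.20 to 0.063 for Effector against Acute-2d and -0.11 to 0.062 for the pooled comparison. *Fosl1* was not compared. Depth limits *Fosl1* and the Acute-7d level of *Batf3*, both near 3 reads.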
